A study of Mus musculus with 12 samples.

Results

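Endothelial cells and osteoblasts sorted from the same kind of tissue, the long bones of tumor-free mice, were compared gene by gene. The comparison used 3 endothelial and 3 osteoblast arrays out of the 12 in the series. Each array was an Affymetrix expression array read as log2 values, and a gene was represented by the probe set with the highest mean over the 12 arrays. Of 19937 genes with a single symbol in the probe annotation, 12430 (62.3%) reached the median level of the array in 3 or more samples and were tested, and 7507 were left out as too dim. All mice were female NOD SCID animals, an immunodeficient strain that lacks mature B and T cells but keeps macrophages, granulocytes and erythroid cells. The tumor-free mice received no tumor cells. The other 6 arrays came from the same 2 cell types of mice given MDA-MB231 scp1833 cells, a bone-seeking line of human breast cancer cells. Those mice had received 200000 cells through the heart and were followed for about 2 weeks. Values of these 6 arrays are set side by side with the tumor-free ones. They also entered the probe set choice, the filter and the estimate of spread behind every p-value. Ground bone was digested for 1 hour with collagenase, dispase and DNAse, and cells without GFP, TR119 or CD45 were sorted. Osteoblasts were SCA1-CD31-CD51+ and endothelial cells SCA1+CD31+, so the genes for SCA1, CD31, CD51 and CD45 describe the gate. The labels name the replicates as biological without saying how many mice were pooled in each, and p-values here measure the spread between these samples.

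Osteoblasts secrete the collagen-rich matrix of bone, mineralize it with the help of alkaline phosphatase and matrix phosphoproteins, and signal to osteoclasts, blood cells and vessels through secreted factors. Endothelial cells line the sinusoids and arterioles of marrow and bone, where receptor kinases for VEGF and angiopoietin, junction proteins, scavenger receptors and anticoagulant proteins govern vessel growth, permeability, uptake and clotting. ETS and SOX factors hold endothelial identity, whereas homeobox and zinc finger factors such as DLX5 and osterix direct bone formation.

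Marker genes followed the labels. 11 of 12 endothelial markers tested were higher in endothelial cells, and the remaining one, Vwf (von Willebrand factor), differed by 0.28 on the log2 scale without passing the test. Pecam1 (CD31), one of these 11, is a gate gene, so its direction was set by the sort. All 9 osteoblast markers tested were lower in endothelial cells, and osteoblast genes outside that list are not in this count. The 3 tumor-free osteoblast arrays were less alike (pairwise r from 0.867 to 0.908 over all probe sets) than the 3 endothelial arrays (0.963 to 0.969). Macrophage markers averaged 4.86, 8.08 and 8.10 on osteoblast replicates 1, 2 and 3 and 4.60, 4.62 and 4.57 on the endothelial arrays, and 7 of 12 were called lower in endothelial cells, a number that was 12 without osteoblast replicate 1 and 0 without replicate 2. Chondrocyte markers averaged 9.53, 8.28 and 6.40 on the osteoblast arrays and 5.66, 5.46 and 6.38 on the endothelial arrays, with 11 of 15 called lower. The chondrocyte count was 4 without tumor-free endothelial replicate 1 and 15 without osteoblast replicate 3. Osteoblast replicate 1 was therefore the array low in macrophage and high in cartilage transcripts, and the part that such cells play in any single difference was not tested. In sorted bulk samples, fewer cells of a type and less RNA per cell cannot be told apart.

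Between endothelial cells and osteoblasts, 3850 of the 12430 genes differed at an adjusted p under 0.05 (31%), by limma with Benjamini-Hochberg adjustment over all genes tested. Of these, 2266 genes (18.2% of those tested) were higher and 1584 (12.7%) were lower in endothelial cells. Differences are given as endothelial minus osteoblast means on the log2 scale, so a negative value means a higher level in osteoblasts. Differences of at least 2-fold numbered 1493 higher (12%) and 444 lower (3.57%), and differences of at least 8-fold numbered 125 higher and 68 lower. The 3 endothelial values lay wholly above or below the 3 osteoblast values in 5875 genes (47.3%), among them 3712 of the 3850 called. The size of the count rested on each endothelial array: 2534 genes were called without tumor-free endothelial replicate 1, 2266 without replicate 2 and 2333 without replicate 3, against 3212 to 3921 with an osteoblast array left out. Lower calls were small on the whole, with 72.0% of them under 2-fold against 34.1% of higher calls. When all arrays were centred on a common median, which moved the median difference of all genes by 0.15, the split became 2852 higher and 785 lower (78.4% higher against 58.9%), and after quantile normalization it was 1646 higher and 1546 lower (51.6% higher). The spread between replicates was wider in tumor-free osteoblasts (median SD 0.33 over genes) than in tumor-free endothelial cells (0.17), and 2529 genes were called when each group was given its own array weight. With the mean of 44 hematopoietic markers (neutrophil, monocyte, erythroid and B cell genes) as a covariate 3073 genes were called, 1998 higher and 1075 lower. That mean was 5.06, 6.77 and 6.67 on the tumor-free osteoblast and 4.74, 4.79 and 5.02 on the tumor-free endothelial arrays. The covariate thus overlaps with cell type, and a call lost under it cannot be assigned to either.

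The difference also followed the level of the gene. Genes were ordered by their mean level and cut into 5 equal bins. In the dimmest bin of 2486 genes the median endothelial minus osteoblast difference was -0.32, with 115 higher and 566 lower calls. In the brightest bin it was 0.43, with 769 higher and 132 lower calls. The same medians were -0.06 and 0.09 in the tumor-bearing mice and -0.20 and 0.19 after quantile normalization. Small differences in dim genes thus went along with their level, the cause of which was not tested. The counts per list below take in every call, also those under 2-fold, unless a count at 2-fold is stated. They can therefore carry this tie to level.

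**Figure D1:**
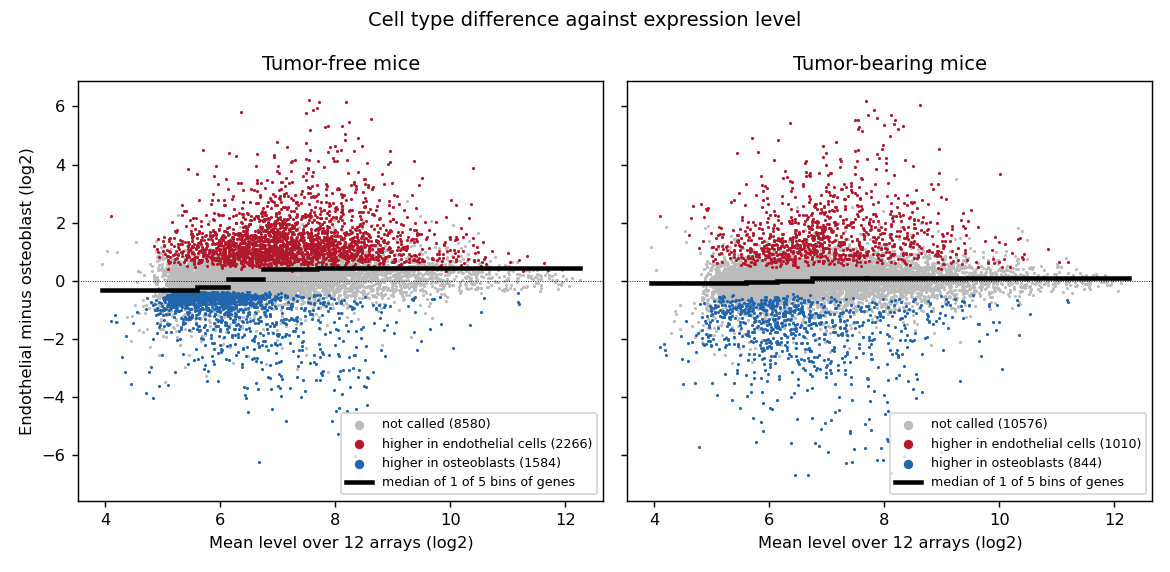
Log2 endothelial minus osteoblast difference in tumor-free mice (left panel, vertical axis) against the mean log2 level over the 12 arrays (horizontal axis) for each of the 12430 genes tested, with called genes in red (higher in endothelial cells) and blue (lower), and the same for tumor-bearing mice in the right panel. Black bars mark the medians of the 5 bins, which run from -0.32 to 0.43 in tumor-free mice and from -0.06 to 0.09 in tumor-bearing mice.

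The genes with the largest endothelial excess mixed signaling, surface and GTPase genes. Rasgrp3, an exchange factor that loads Ras and Rap GTPases with GTP, read 4.43, 4.78 and 4.14 in the osteoblast arrays and 10.66, 10.68 and 10.68 in the endothelial arrays. That 74.5-fold difference (6.22 ± 0.25 (SE, adjusted p = 1.04e-07)) led the genome-wide order. Il13ra2, the decoy receptor for interleukin-13, read 3.76, 4.19 and 3.53 in osteoblasts and 9.29, 9.91 and 9.66 in endothelial cells, a 55.6-fold difference (5.80 ± 0.27 (SE, adjusted p = 2.44e-07)). It was near the floor of the array in every osteoblast sample. Gpm6a, a membrane glycoprotein best known from neurons, read 5.61, 5.95 and 5.09 against 10.91, 11.10 and 11.01 (5.46 ± 0.48 (SE, adjusted p = 1.97e-05)), and Clca3a1, a secreted chloride channel regulator, read 4.63, 5.73 and 4.81 against 10.11, 10.26 and 10.35 (5.18 ± 0.33 (SE, adjusted p = 2.04e-06)). Tcim, a small regulator of Wnt signaling, read 6.34, 4.94 and 5.41 in osteoblasts and 10.64, 10.40 and 10.35 in endothelial cells (4.90 ± 0.56 (SE, adjusted p = 0.000142)). The osteoblast and endothelial values of these genes did not overlap. Adgrl4, an orphan adhesion receptor of vessels, and Ptprb, the phosphatase that restrains TIE2, were 61.8-fold and 40.5-fold higher.

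On the osteoblast side the order was led by matrix genes, among which were a transporter, a lipid enzyme and 2 immune cell genes. Fap, the fibroblast activation protease, read 9.71, 10.77 and 10.56 in osteoblasts and 6.39, 4.10 and 4.79 in endothelial cells (-5.26 ± 0.49 (SE, adjusted p = 3.53e-05)). Ccdc80, a secreted matrix protein, read 11.18, 9.62 and 9.39 against 5.39, 4.92 and 5.41 (-4.82 ± 0.42 (SE, adjusted p = 2.04e-05)). Slc13a5, the plasma membrane citrate transporter, read 9.05, 8.22 and 9.28 in osteoblasts and 4.59, 4.15 and 4.57 in endothelial cells, a 21.4-fold difference (-4.42 ± 0.38 (SE, adjusted p = 1.78e-05)). All 3 genes were separated on every array. Sgms2, a sphingomyelin synthase needed for mineralized bone, read 10.36, 9.76 and 9.55 against 5.69, 4.94 and 5.96 (-4.36 ± 0.29 (SE, adjusted p = 3.07e-06)), and the peptidase gene Phex, which controls phosphate handling in bone, read 8.50, 9.59 and 9.91 against 4.40, 4.65 and 4.54 (-4.80 ± 0.41 (SE, adjusted p = 1.7e-05)). Fyb and Ms4a7, genes of myeloid cells, were uneven among the osteoblast arrays. Fyb read 6.46, 9.68 and 9.93 in osteoblasts against 3.71, 4.11 and 4.74, and Ms4a7 read 3.98, 8.66 and 9.06 against 3.28, 3.20 and 3.18. Both were lowest on osteoblast replicate 1, the array lowest in macrophage markers, and Ms4a7 was not called without osteoblast replicate 2 or 3 or without any 1 of the 3 endothelial arrays. Scrg1, a cartilage gene, ran the other way at 11.09, 8.09 and 4.60, and it too was not called without any 1 of the endothelial arrays.

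**Figure D2:**
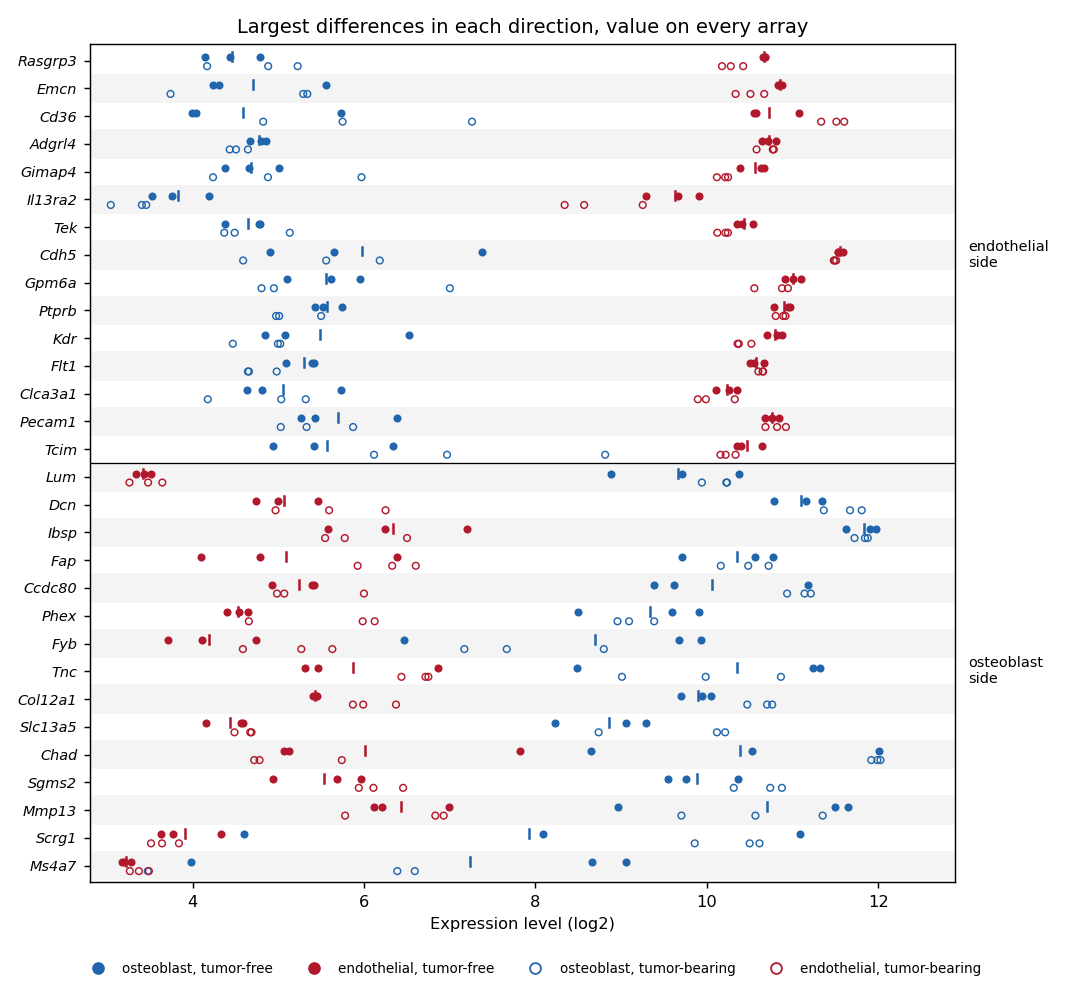
Log2 expression level on every array for the 15 genes with the largest difference in each direction in tumor-free mice. Filled points are tumor-free arrays, open points tumor-bearing arrays, blue osteoblasts and red endothelial cells, and the short bar is the tumor-free group mean. Rasgrp3 separated the cell types by 6.22 log2 units, whereas Ms4a7 spread widely among the osteoblast arrays.

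Of 233 receptor and co-receptor genes tested, 86 (36.9%) were higher and 52 (22.3%) were lower in endothelial cells, against 18.2% and 12.7% of all genes tested. Of the 138 calls 86 were higher, a split near that of all genes (2266 of 3850), and the median over the receptor genes was 0.08. At 2-fold or more the counts were 76 and 30, against 12% and 3.57% of all genes. These shares of all genes are the background for every list below. The lower count was 26 without tumor-free endothelial replicate 2 and 33 after centring. With the hematopoietic covariate it was 23, and in single lists it was 3 for receptor tyrosine kinases, 7 for G protein-coupled receptors, 4 for cytokine receptors, 3 for scavenger receptors, and 0 for Notch genes and for pattern receptors.

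Of 35 receptor tyrosine kinases tested, 12 were higher and 10 lower in endothelial cells. Tek, the angiopoietin receptor TIE2, read 4.37, 4.79 and 4.77 in osteoblasts and 10.35, 10.54 and 10.41 in endothelial cells, and the gap of 5.79 ± 0.20 (SE, adjusted p = 3.39e-08) was the largest among the 35 receptor tyrosine kinases tested. Flt1, the VEGF receptor that binds but signals weakly, read 5.09, 5.39 and 5.41 against 10.67, 10.51 and 10.56 (5.28 ± 0.15 (SE, adjusted p = 6.58e-09)). Flt4, the VEGF-C receptor of sinusoidal and lymphatic endothelium, and Tie1, the partner of TIE2, were higher by 3.79 and 3.0. The insulin receptor gene Insr read 9.09, 7.79 and 5.69 in osteoblasts and 11.09, 11.17 and 10.96 in endothelial cells (3.55 ± 0.62 (SE, adjusted p = 0.00232)). Its endothelial values were close together, whereas the osteoblast values spread from the endothelial side on replicate 1 to far below it on replicate 3. Ddr2, a receptor for fibrillar collagen, read 7.41, 7.65 and 7.93 in osteoblasts and 5.93, 5.69 and 5.71 in endothelial cells, lower at -1.89 ± 0.24 (SE, adjusted p = 0.000276). Fgfr1 read 7.21, 8.40 and 8.03 against 6.74, 6.47 and 6.82 (-1.21 ± 0.30 (SE, adjusted p = 0.014)). Pdgfra, a receptor of mesenchymal cells for platelet-derived growth factor, read 5.75, 9.21 and 8.48 in osteoblasts and 6.10, 5.78 and 5.20 in endothelial cells and did not separate the groups in full (-2.12 ± 0.73 (SE, adjusted p = 0.0487)). Its call was lost in 10 of the 12 fits that left out an array. The median over the list was -0.37, but 0.27 with the hematopoietic covariate and 0.36 under the stricter filter on dim genes. The lower count was 2 without tumor-free endothelial replicate 2, where Fgfr1 lost its call too.

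TGF-beta and BMP receptors showed a different split. 6 of 11 (54.5%) were higher in endothelial cells and 1 (9.09%) was lower, against 18.2% and 12.7% of all genes. The median was 0.80 (0.59 after quantile normalization). The co-receptor endoglin, Eng, was higher by 4.21 ± 0.19 (SE, adjusted p = 2.44e-07). Bmpr2, the type II BMP receptor, read 9.10, 9.46 and 8.76 in osteoblasts and 10.47, 10.26 and 10.33 in endothelial cells (1.25 ± 0.19 (SE, adjusted p = 0.000942)), and the type I receptor Acvrl1 (ALK1), which pairs with it in endothelium, was higher by 1.17 ± 0.19 (SE, adjusted p = 0.00148). The type I receptor Bmpr1a (ALK3) went the opposite way at 6.15, 5.17 and 6.61 in osteoblasts against 4.50, 4.13 and 3.97 in endothelial cells (-1.77 ± 0.30 (SE, adjusted p = 0.00184)). Tgfbr2, the type II TGF-beta receptor, was higher in endothelial cells by 1.5 ± 0.24 (SE, adjusted p = 0.00129).

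Among G protein-coupled receptors, 22 of 62 were higher and 15 lower, with a median of -0.03. The lower count was 7 without tumor-free endothelial replicate 3, and the sign of the median turned under centring (0.12). Calcrl, which forms the adrenomedullin receptor together with RAMP2, read 4.21, 6.14 and 6.35 in osteoblasts and 10.42, 10.43 and 10.36 in endothelial cells (4.84 ± 0.70 (SE, adjusted p = 0.000759)). Its partner Ramp2 read 5.36, 5.49 and 5.69 against 9.24, 9.57 and 9.12 (3.80 ± 0.30 (SE, adjusted p = 9.44e-06)). Both genes were high on every endothelial array, and Ramp3 was also higher by 2.91, while Ramp1, which makes the same receptor respond to calcitonin gene-related peptide, was lower at -1.01 ± 0.17 (SE, adjusted p = 0.00181). The apelin receptor Aplnr and the endothelin receptor Ednrb were higher by 4.44 and 3.37. Pth1r, the receptor through which parathyroid hormone acts on osteoblasts, read 8.85, 9.92 and 8.56 in osteoblasts and 5.61, 5.63 and 5.85 in endothelial cells. It was the osteoblast counterpart, 10.6-fold lower in endothelial cells (-3.41 ± 0.34 (SE, adjusted p = 5.63e-05)). Lpar1, a lysophosphatidic acid receptor, was lower at -1.36 ± 0.20 (SE, adjusted p = 0.000721), and Lpar6, another receptor for that lipid, was higher by 3.71 ± 0.18 (SE, adjusted p = 2.97e-07).

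Of 17 Frizzled and LRP receptors tested, 3 were higher and 1 was lower, a share of 23.5% below the 31% of all genes. Fzd4 read 5.85, 5.52 and 4.38 in osteoblasts and 8.70, 8.66 and 8.61 in endothelial cells (3.41 ± 0.37 (SE, adjusted p = 8.88e-05)), and Tspan12, the tetraspanin that helps FZD4 respond to norrin in vessels, read 5.31, 6.74 and 7.13 against 10.05, 10.02 and 9.68 (3.52 ± 0.41 (SE, adjusted p = 0.000164)). Both were higher on all endothelial arrays. Fzd6 was higher by 2.12 ± 0.17 (SE, adjusted p = 1.02e-05). Lrp4, the co-receptor that presents the Wnt inhibitor sclerostin on bone cells, read 6.37, 8.92 and 8.73 in osteoblasts and 5.87, 5.85 and 5.88 in endothelial cells (-2.14 ± 0.53 (SE, adjusted p = 0.0136)), and its lowest osteoblast value, on replicate 1, was near the endothelial arrays.

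Cytokine receptors were divided, with 11 of 38 higher and 9 lower, and the lower count was 3 without tumor-free endothelial replicate 2. Besides Il13ra2, the shared signaling chain of the interleukin-6 family, Il6st, and the common beta chain Csf2rb were higher in endothelial cells by 2.66 ± 0.34 (SE, adjusted p = 0.000337) and 2.96 ± 0.17 (SE, adjusted p = 8.41e-07). Tnfrsf11b, the osteoprotegerin gene, whose secreted product blocks RANKL, was lower at -1.12 ± 0.29 (SE, adjusted p = 0.0171) and lost its call without tumor-free endothelial replicate 2. Lepr, the leptin receptor of marrow stroma, read 8.57, 9.46 and 9.62 in osteoblasts and 8.42, 7.18 and 6.96 in endothelial cells (-1.70 ± 0.45 (SE, adjusted p = 0.0186)). The endothelial value of replicate 1 sat just under the lowest osteoblast value, and the call did not hold without osteoblast replicate 3 or endothelial replicate 2 or 3.

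Scavenger, lectin and lipid receptors were higher in endothelial cells in 12 of 26 genes and lower in 6 (median 0.82, and 0.47 in tumor-bearing mice). Stab2 and Stab1, which clear hyaluronan and other waste molecules from blood in sinusoids, were 22.0-fold and 12.1-fold higher. Gpihbp1, which carries lipoprotein lipase to the capillary wall, read 5.63, 5.70 and 5.42 in osteoblasts and 9.46, 9.59 and 9.39 in endothelial cells (3.90 ± 0.22 (SE, adjusted p = 9.98e-07)). The endocytic receptor Lrp1 read 7.49, 8.77 and 8.30 against 6.18, 5.47 and 5.68, lower in endothelial cells at -2.41 ± 0.31 (SE, adjusted p = 0.000345). Clec11a, a secreted lectin that promotes bone formation and is kept in this list, was lower at -2.07 ± 0.32 (SE, adjusted p = 0.00106). Of the 13 pattern receptors, 5 were higher and 3 lower. Ly96, the co-receptor through which TLR4 senses endotoxin, read 3.91, 5.50 and 5.80 in osteoblasts and 8.27, 8.49 and 8.55 in endothelial cells (3.37 ± 0.48 (SE, adjusted p = 0.000688)), and Nod1, a sensor of bacterial cell walls, was higher by 2.50 ± 0.20 (SE, adjusted p = 1.25e-05).

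Notch genes leaned to endothelial cells with 7 of 13 higher (53.8%) and 2 lower (15.4%), against 18.2% and 12.7% of all genes (median 0.63). Notch1 was higher by 2.06 ± 0.18 (SE, adjusted p = 1.78e-05), the ligand Jag1 by 1.89 ± 0.32 (SE, adjusted p = 0.002) and Notch4 by 1.40 ± 0.17 (SE, adjusted p = 0.000217). Notch2 read 6.35, 7.37 and 7.30 in osteoblasts and 5.65, 5.98 and 5.81 in endothelial cells, lower at -1.20 ± 0.26 (SE, adjusted p = 0.00761), so different receptors of the family lay on either side. Guidance receptors also divided, with 6 of 17 higher and 4 lower. The lower count was 2 without tumor-free osteoblast replicate 2. Robo4, a vessel-stabilizing roundabout receptor, was higher by 2.94 ± 0.14 (SE, adjusted p = 2.97e-07), whereas Neo1 (neogenin) read 9.24, 9.27 and 8.88 in osteoblasts against 6.60, 5.97 and 6.99 in endothelial cells (-2.61 ± 0.23 (SE, adjusted p = 2.15e-05)) and the netrin receptor Unc5c was lower at -2.29 ± 0.55 (SE, adjusted p = 0.0116).

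**Figure D3:**
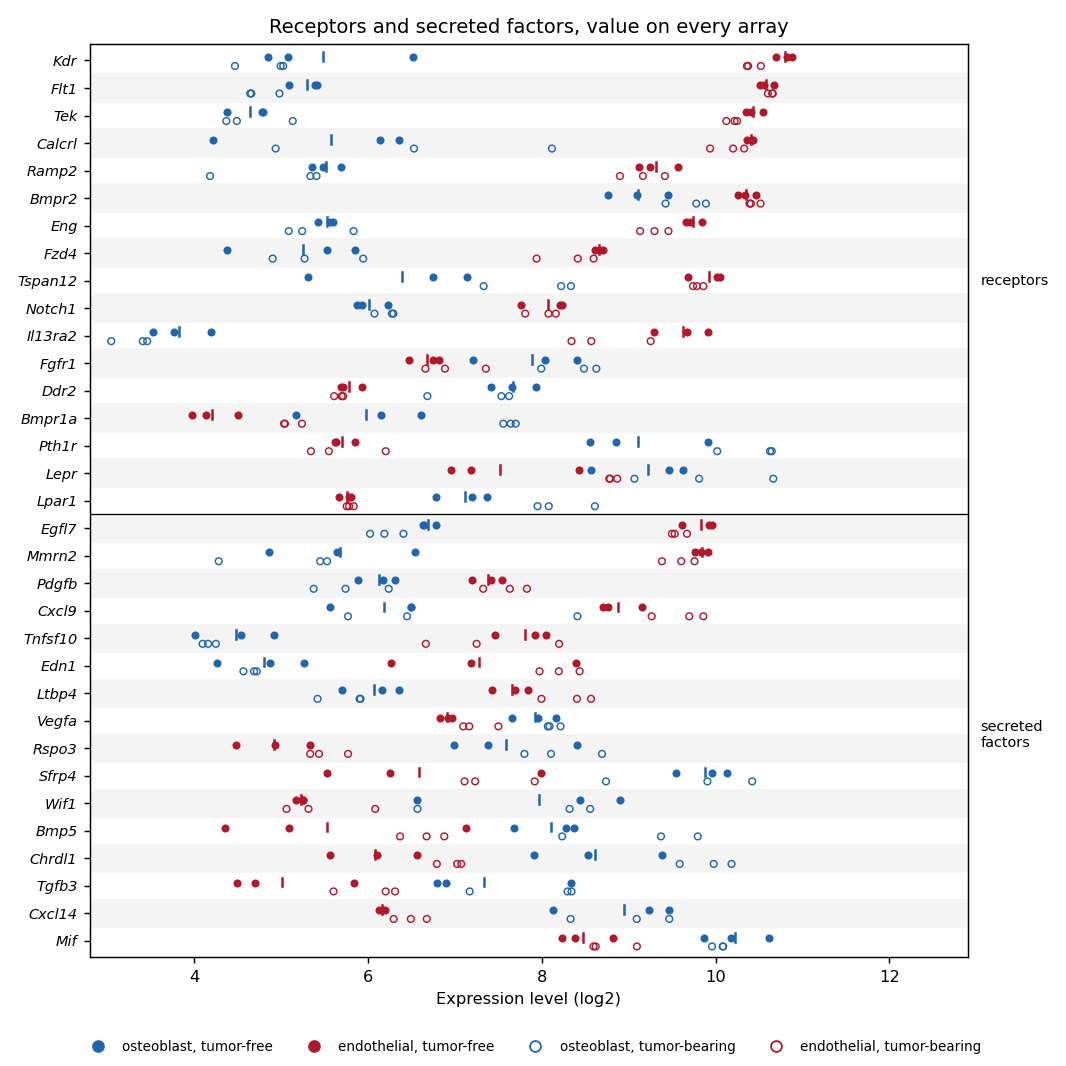
Log2 expression level on every array for receptors (upper panel) and secreted factors (lower panel). Filled points are tumor-free arrays, open points tumor-bearing arrays, blue osteoblasts and red endothelial cells, and the short bar is the tumor-free group mean. Tek, Kdr and Flt1 sat above every osteoblast array in all endothelial arrays, and Pth1r lay between 8.56 and 9.92 in the tumor-free osteoblasts.

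Among 303 transcription factor genes tested, 66 (21.8%) were higher and 64 (21.1%) lower in endothelial cells, against 18.2% and 12.7% of all genes. The higher share was thus near that of all genes. At 2-fold or more they numbered 49 and 25, against 12% and 3.57% of all genes. The full lower count was 35 without tumor-free endothelial replicate 2, 38 after centring and 39 with the hematopoietic covariate, which left 6 lower homeobox factors outside the HOX group, 4 lower HOX genes and 0 lower ETS factors. ETS factors were higher in 10 of 21 and lower in 3, with a median of 1.03 (0.71 after quantile normalization). Erg, an ETS factor that keeps endothelial identity, read 5.94, 6.04 and 6.78 in osteoblasts and 9.64, 9.56 and 9.58 in endothelial cells (3.34 ± 0.24 (SE, adjusted p = 5.84e-06)). Ets2 and Elk3, 2 further ETS factors, read 6.17, 7.05 and 6.42 against 9.84, 9.99 and 9.86 (3.35 ± 0.24 (SE, adjusted p = 4.69e-06)) and 7.76, 7.81 and 7.22 against 9.78, 10.0 and 9.93 (2.31 ± 0.17 (SE, adjusted p = 6.41e-06)). Ets1 read 7.18, 5.70 and 5.95 in osteoblasts and 9.60, 9.65 and 9.43 in endothelial cells (3.28 ± 0.32 (SE, adjusted p = 4.37e-05)). All 4 were above every osteoblast array. Spic, an ETS factor of macrophages, had the largest osteoblast excess among the 303 factors at 3.93, 8.26 and 8.94 against 3.13, 3.28 and 3.22 (-3.84 ± 1.10 (SE, adjusted p = 0.0249)), and it was low on replicate 1, the osteoblast array lowest in macrophage markers. It was not called with the hematopoietic covariate, without osteoblast replicate 2 or 3, or without any 1 of the 3 endothelial arrays. The 3 SOX factors of the vessel group were higher as well. Sox18 read 6.10, 5.91 and 6.19 against 9.54, 9.78 and 9.72 (3.61 ± 0.22 (SE, adjusted p = 1.85e-06)), and Sox17 and Sox7 were higher by 2.30 ± 0.33 (SE, adjusted p = 0.000658) and 2.12 ± 0.34 (SE, adjusted p = 0.00131). In all, SOX factors were higher in 4 and lower in 6 of 17, and the lower count was 2 without tumor-free endothelial replicate 1. Of these SOX calls, 4 higher and 1 lower reached 2-fold. The cartilage factor Sox9 read 9.66, 7.54 and 6.82 in osteoblasts and 6.12, 6.49 and 6.57 in endothelial cells (-1.62 ± 0.54 (SE, adjusted p = 0.0442)), with its highest value on osteoblast replicate 1, and its call was lost in 9 of the 12 fits that left out an array.

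Factors of other families that were higher in endothelial cells had diverse roles. Ldb2, a LIM domain binding cofactor, read 8.17, 7.48 and 5.23 in osteoblasts and 11.03, 11.04 and 11.16 in endothelial cells (4.12 ± 0.55 (SE, adjusted p = 0.000428)). Its osteoblast values were spread widely and its endothelial values closely. Tfec, a bHLH zipper factor related to MITF, read 4.98, 5.15 and 4.28 in osteoblasts and 6.91, 9.26 and 8.76 in endothelial cells (3.51 ± 0.55 (SE, adjusted p = 0.00113)), and here the spread was on the endothelial side. Nr2f2 (COUP-TFII), the nuclear receptor of venous identity, read 5.51, 5.69 and 5.37 against 8.21, 8.35 and 8.19 (2.73 ± 0.19 (SE, adjusted p = 4.43e-06)). Pparg, the fatty acid sensor, was higher by 1.70 ± 0.34 (SE, adjusted p = 0.00508). The bHLH factor Tcf4, the hypoxia factor Epas1 (HIF-2 alpha), the zinc finger repressor Zeb1 and the homeobox factor Hhex were higher by 2.55, 2.19, 2.38 and 2.32. Lmo2 and Gata2, which act together in blood and vessel development, were higher by 1.28 ± 0.31 (SE, adjusted p = 0.0127) and 1.05 ± 0.22 (SE, adjusted p = 0.00591). Smad5 and Smad1, which carry the BMP signal into the nucleus, were higher by 1.63 ± 0.20 (SE, adjusted p = 0.000211) and 1.25 ± 0.21 (SE, adjusted p = 0.00179), and SMAD, STAT, NF-kB and IRF genes together held 8 higher and 1 lower of 25. Nr4a1 was the single member called among 20 immediate early genes tested, which often rise when tissue is digested, and it was higher by 1.36 ± 0.26 (SE, adjusted p = 0.00348). The median over these 20 genes was 0.41. Their higher count was 8 without tumor-free osteoblast replicate 1 and 4 after centring, and 2 were lower after quantile normalization.

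Homeobox and bone factors were among those higher in osteoblasts. Dlx5, a homeobox factor of bone formation, read 8.49, 9.03 and 8.87 in osteoblasts and 6.11, 5.56 and 5.95 in endothelial cells (-2.93 ± 0.31 (SE, adjusted p = 8.52e-05)). Sp7 (osterix), without which osteoblasts do not form, read 6.81, 8.04 and 7.78 against 4.60, 4.72 and 4.76 (-2.85 ± 0.33 (SE, adjusted p = 0.000165)). Prrx1, a limb mesenchyme homeobox factor, read 7.42, 8.83 and 8.42 in osteoblasts and 6.27, 4.43 and 5.76 in endothelial cells (-2.74 ± 0.55 (SE, adjusted p = 0.00499)). Each of the 3 separated the groups. Creb3l1, a factor released from the endoplasmic reticulum that drives collagen production, was lower at -2.27 ± 0.46 (SE, adjusted p = 0.00483), and the limb factor Shox2 at -1.99 ± 0.30 (SE, adjusted p = 0.000965). Runx1 read 6.97, 8.0 and 7.70 against 6.56, 5.25 and 5.43 (-1.81 ± 0.41 (SE, adjusted p = 0.00905)) and Runx3 was lower at -1.93 ± 0.37 (SE, adjusted p = 0.00374), and the GATA, RUNX, MEF2 and LMO genes together gave 4 higher and 3 lower of 17. Twist1, Snai2 and Gli3, factors of mesenchyme and hedgehog signaling, were lower at -1.56, -1.52 and -1.55. Vdr, the vitamin D receptor, read 5.22, 8.51 and 7.77 in osteoblasts and 5.31, 5.36 and 5.30 in endothelial cells (-1.85 ± 0.63 (SE, adjusted p = 0.0459)), with osteoblast replicate 1 at the endothelial level, and its call was lost in 11 of the 12 fits that left out an array. Other homeobox factors were higher in 6 and lower in 15 of 42 (median -0.37), and the lower count was 9 without tumor-free endothelial replicate 3. Of these homeobox calls, 4 higher and 6 lower reached 2-fold.

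HOX genes, which mark position along the body axis, were called in both directions. The 4 HOX genes with the largest endothelial excess were Hoxd8, Hoxb4, Hoxb5 and Hoxb6, at 1.32, 1.14, 1.12 and 1.04. Hoxb5 lost its call without tumor-free endothelial replicate 3. The 4 with the largest osteoblast excess were Hoxc8, Hoxc6, Hoxc10 and Hoxa10, lower at -2.04, -1.74, -1.73 and -1.06. Hoxc8 read 6.15, 5.32 and 7.48 in osteoblasts and 4.13, 4.23 and 4.46 in endothelial cells (-2.04 ± 0.41 (SE, adjusted p = 0.00487)). Over 25 HOX genes tested, 5 were higher and 8 lower.

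**Figure D4:**
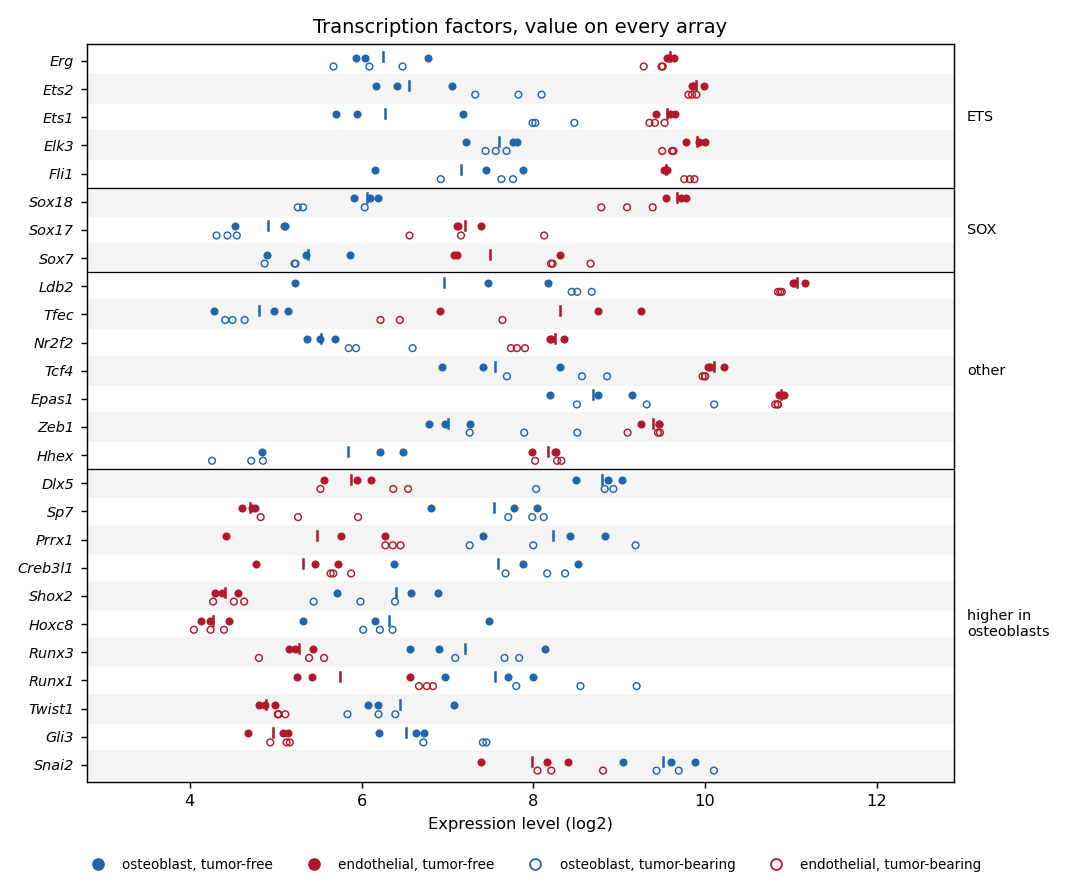
Log2 expression level on every array for transcription factor genes, grouped as ETS, SOX, other families higher in endothelial cells, and factors higher in osteoblasts. Filled points are tumor-free arrays, open points tumor-bearing arrays, blue osteoblasts and red endothelial cells, and the short bar is the tumor-free group mean. Erg and Sox18 were separated on all 12 arrays, and Tfec ran from 6.91 to 9.26 on the tumor-free endothelial arrays.

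Promoter sequence is shown for 3 of these factors, 1 per pattern: Erg and Tfec, higher in endothelial cells, and Prrx1, higher in osteoblasts. The 250 bases before the annotated gene start come from RefSeq on GRCm38.p6, written 5′ to 3′ on the gene's strand. Of 7 motifs searched, 1 per gene is marked. The capitals mark a match to a homeodomain core, TAATTA, in Erg and Prrx1 and to an ETS core, GGAAGT, in Tfec. Matches to other motifs are left in lower case, among them the TEAD core GGAATG in Tfec and Prrx1. Both strands were searched, and TAATTA reads the same on both.
Erg, chr16:95586594-95586843, minus strand: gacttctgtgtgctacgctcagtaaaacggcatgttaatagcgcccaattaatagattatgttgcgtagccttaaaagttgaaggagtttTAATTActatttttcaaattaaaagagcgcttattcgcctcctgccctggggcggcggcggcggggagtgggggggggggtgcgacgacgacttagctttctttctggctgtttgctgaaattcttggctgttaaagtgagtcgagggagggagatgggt
Tfec, chr6:16898442-16898691, minus strand: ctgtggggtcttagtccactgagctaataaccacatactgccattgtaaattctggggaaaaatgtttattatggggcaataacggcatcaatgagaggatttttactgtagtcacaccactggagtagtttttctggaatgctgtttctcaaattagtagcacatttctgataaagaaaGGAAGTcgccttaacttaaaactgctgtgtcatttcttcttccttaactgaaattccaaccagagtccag
Prrx1, chr1:163313651-163313900, minus strand: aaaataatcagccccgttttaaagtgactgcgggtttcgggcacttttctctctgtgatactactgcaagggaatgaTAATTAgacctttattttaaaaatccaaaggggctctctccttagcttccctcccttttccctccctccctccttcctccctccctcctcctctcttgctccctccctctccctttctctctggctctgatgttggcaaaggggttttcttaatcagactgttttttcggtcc
The marked match begins 160 bases before the start of Erg, 70 bases before that of Tfec and 173 bases before that of Prrx1. The homeodomain core occurred in 4.9% and the ETS core in 20% of the 27025 upstream windows of the same length, so a match describes these letters and no more. A comparison of motif shares between called and other genes is void and was not used, because only 9859 of the 12430 tested genes (79.3%) had a promoter in the table.

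Secreted genes lay mainly on the osteoblast side, with 98 of 232 (42.2%) lower and 34 (14.7%) higher in endothelial cells. Of all genes 12.7% were lower and 18.2% higher. At 2-fold or more 55 secreted genes were lower and 30 higher, against 3.57% and 12% of all genes. The full lower count was 57 without tumor-free endothelial replicate 2, 63 after centring and 60 with the hematopoietic covariate, which left 16 lower interstitial collagens, 7 Wnt genes, 4 growth factors of other families, 1 vascular growth factor and 1 complement gene. The median over the 232 genes was -0.56 (-0.62 after quantile normalization, -0.41 after centring, -0.48 in tumor-bearing mice).

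Vascular growth factors were called in both directions. Vegfa read 8.17, 7.65 and 7.96 in osteoblasts and 6.97, 6.83 and 6.92 in endothelial cells, lower at -1.02 ± 0.16 (SE, adjusted p = 0.00143), whereas its receptors Kdr and Flt1 were higher. Pdgfb, with which endothelium recruits mural cells, ran the other way at 5.89, 6.31 and 6.17 against 7.41, 7.54 and 7.20 (1.26 ± 0.23 (SE, adjusted p = 0.00271)), and Pdgfc was lower at -2.58 ± 0.66 (SE, adjusted p = 0.015), a call lost without tumor-free endothelial replicate 1 or 2. Egfl7, a matrix protein of vessels, read 6.63, 6.64 and 6.79 in osteoblasts and 9.62, 9.93 and 9.96 in endothelial cells (3.15 ± 0.15 (SE, adjusted p = 2.97e-07)). The multimerins Mmrn2 and Mmrn1, sticky glycoproteins of vessel wall and platelets, were higher by 4.16 ± 0.40 (SE, adjusted p = 4.42e-05) and 3.68 ± 0.31 (SE, adjusted p = 1.42e-05). Edn1, the vasoconstrictor endothelin-1, read 5.26, 4.26 and 4.87 against 8.39, 6.27 and 7.18 (2.48 ± 0.44 (SE, adjusted p = 0.00231)). All of the endothelial values of these higher genes lay above the osteoblast values. In the list of 16, 4 were higher and 5 lower, and the lower count was 1 without tumor-free osteoblast replicate 3.

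Wnt ligands and antagonists were lower in endothelial cells in 14 of 22 genes, and 0 were higher (1 after centring). At 2-fold or more 7 were lower. The count of 14 was 7 without tumor-free endothelial replicate 1, 9 after quantile normalization and 6 after centring, with a median of -0.57 (-0.56 and -0.41). The 31 Wnt genes on the array, 9 of them untested, averaged 5.28, 5.14 and 5.14 on the tumor-free endothelial arrays. Those averages lay near the medians of the same arrays (5.21 to 5.26). A gene dim in endothelial cells passes the filter mainly through osteoblast arrays, so the one-sided count was partly built in. Sfrp4, a decoy that binds Wnt proteins, read 9.55, 10.13 and 9.95 in osteoblasts and 7.99, 6.25 and 5.53 in endothelial cells (-3.29 ± 0.58 (SE, adjusted p = 0.00232)). Wif1, another Wnt inhibitor, read 6.57, 8.90 and 8.44 against 5.25, 5.17 and 5.25 (-2.74 ± 0.61 (SE, adjusted p = 0.0084)). Rspo3, which strengthens Wnt signals, read 8.41, 7.38 and 6.98 in osteoblasts and 5.33, 4.48 and 4.93 in endothelial cells (-2.68 ± 0.36 (SE, adjusted p = 0.000468)). Both inhibitors and the activator were thus lower in endothelial cells, and osteoblast replicate 1 was the lowest osteoblast array for Wif1 and Sfrp4 and the highest for Rspo3. Dkk1, a secreted LRP6 blocker, was lower at -0.68 ± 0.16 (SE, adjusted p = 0.0115).

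TGF-beta and BMP ligands and antagonists were lower in 11 and higher in 3 of 28, and the lower count was 6 without tumor-free endothelial replicate 2. Tgfb3, the isoform of skeletal mesenchyme, was lower at -2.33 ± 0.49 (SE, adjusted p = 0.00613). Bmp5 read 7.67, 8.28 and 8.37 in osteoblasts and 7.13, 5.09 and 4.35 in endothelial cells (-2.59 ± 0.61 (SE, adjusted p = 0.0106)), with endothelial replicate 1 well above the other two. The BMP antagonists Chrdl1 and Grem1 were lower at -2.53 ± 0.35 (SE, adjusted p = 0.000566) and -1.25 ± 0.27 (SE, adjusted p = 0.00697). Ltbp4, which holds latent TGF-beta in the matrix, was higher by 1.58 ± 0.23 (SE, adjusted p = 0.000704), and the activin subunit Inhbb by 0.86 ± 0.21 (SE, adjusted p = 0.0114). Growth factors of other families were lower in 11 and higher in 4 of 28. Those counts were 3 without tumor-free endothelial replicate 3 and 1 without tumor-free osteoblast replicate 3, and no direction is read from them.

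Of 19 chemokines 1 was higher and 3 were lower (21.1%), and of 18 cytokines 1 was higher and 4 were lower (27.8%), against 31% of all genes. Cxcl9, the interferon-induced attractant of T cells, read 6.49, 6.50 and 5.56 in osteoblasts and 8.76, 9.15 and 8.71 in endothelial cells (2.69 ± 0.54 (SE, adjusted p = 0.00504)). Cxcl14, a chemokine of stroma, read 9.47, 8.13 and 9.24 against 6.13, 6.20 and 6.16 (-2.78 ± 0.35 (SE, adjusted p = 0.000276)). The 2 were on opposite sides with no overlap. Cxcl12, which keeps blood stem cells in marrow, read 8.86, 10.32 and 10.70 in osteoblasts and 9.88, 9.12 and 8.85 in endothelial cells and did not pass the test (-0.68 ± 0.44 (SE, adjusted p = 0.253)). Tnfsf10, the death ligand TRAIL, was higher at 4.91, 4.0 and 4.53 against 7.46, 7.92 and 8.05 (3.32 ± 0.35 (SE, adjusted p = 8.07e-05)), and Mif, the macrophage migration inhibitory factor, was lower at 10.62, 9.87 and 10.17 against 8.38, 8.82 and 8.23 (-1.74 ± 0.23 (SE, adjusted p = 0.000347)). These 2 were also separated on every array.

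Of 21 hemostasis genes, 10 were higher and 5 lower (median 1.0, and 0.40 with the hematopoietic marker mean as a covariate). F8, coagulation factor VIII, read 5.19, 6.10 and 6.33 in osteoblasts and 10.35, 10.61 and 10.51 in endothelial cells, a 24.5-fold difference (4.61 ± 0.27 (SE, adjusted p = 1.18e-06)). Tfpi, the inhibitor of tissue factor, and the anticoagulant receptor Thbd (thrombomodulin) were higher by 4.46 ± 0.36 (SE, adjusted p = 1.1e-05) and 3.06 ± 0.20 (SE, adjusted p = 2.4e-06). Their values did not overlap with those of osteoblasts. On the other side Thbs1 (thrombospondin) and F13a1, the clot-stabilizing transglutaminase that macrophages also make, were lower at -1.70 ± 0.25 (SE, adjusted p = 0.000776) and -2.49 ± 0.57 (SE, adjusted p = 0.00913). Serpinf1, the angiogenesis inhibitor PEDF, was lower at -1.94 ± 0.25 (SE, adjusted p = 0.000309). Complement genes were lower in 7 of 15, but that count was 2 without tumor-free endothelial replicate 3 and 10 without tumor-free osteoblast replicate 1, and complement C1q genes are among the macrophage markers, with C1qc at 5.36, 10.28 and 10.26 on the osteoblast arrays.

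Interstitial collagens were called in one direction. Of 27 fibrillar and other interstitial collagen genes, 25 were lower in endothelial cells and none was higher, at a median of -1.12 (-1.30 and -0.97 after quantile normalization and centring). The lower count was 18 without tumor-free endothelial replicate 1, and 15 were lower by at least 2-fold. Col12a1, a collagen on the surface of fibrils, read 10.04, 9.94 and 9.69 in osteoblasts and 5.40, 5.44 and 5.45 in endothelial cells (-4.46 ± 0.17 (SE, adjusted p = 5.08e-08)), with replicates close together in both groups. Col11a1 and Col10a1, which are also cartilage collagens, were lower at -3.16 ± 0.31 (SE, adjusted p = 4.8e-05) and -4.0 ± 0.76 (SE, adjusted p = 0.00366). Col10a1 read 10.89, 8.81 and 7.01 on the osteoblast arrays, highest on the array richest in cartilage transcripts. Col6a1, a subunit of beaded filaments, was lower at -2.59 ± 0.26 (SE, adjusted p = 4.9e-05). The remaining pair, Col27a1 and Col6a3, differed by -0.51 and -0.72 without a call. Small leucine-rich proteoglycans, which bind collagen fibrils, were lower in 9 of 15 and higher in none (1 after centring). Ogn, Omd and Fmod were lower at -3.72 ± 0.60 (SE, adjusted p = 0.00143), -3.58 ± 0.61 (SE, adjusted p = 0.00192) and -2.77 ± 0.63 (SE, adjusted p = 0.00871).

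Basement membrane genes went the other way in part, with 10 of 24 higher and 4 lower (the lower count was 1 without tumor-free endothelial replicate 2). Of these calls, 8 higher and 0 lower reached 2-fold. The nephronectin gene Npnt, the linker Nid1 (nidogen) and the laminin subunits Lama3 and Lamc1 were higher in endothelial cells by 2.73 ± 0.26 (SE, adjusted p = 4.37e-05), 2.45 ± 0.29 (SE, adjusted p = 0.000178), 1.54 ± 0.18 (SE, adjusted p = 0.000161) and 1.51 ± 0.24 (SE, adjusted p = 0.00142). Col4a1 and Col4a2, the chains of the common collagen IV network, were higher by 1.49 and 1.24. Lama2, the laminin subunit of muscle and nerve, was lower at -0.62 ± 0.18 (SE, adjusted p = 0.0291) and lost its call without tumor-free osteoblast replicate 1 or endothelial replicate 2 or 3.

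Metabolic genes gave 65 higher (14.7%) and 72 lower (16.3%) of 441 tested, against 18.2% and 12.7% of all genes. The higher count was 46 without tumor-free endothelial replicate 2 and the lower count 43 without tumor-free endothelial replicate 2. Together 31.1% were called, the share of all genes being 31%. With the hematopoietic covariate the higher count rose to 12 of citrate cycle, 8 of respiratory chain and 10 of antioxidant genes and the lower count to 9 of cholesterol and fatty acid synthesis genes, while 3 vascular tone genes and 4 retinoid genes were lower. Fatty acid uptake and oxidation genes were higher in 14 of 38 and lower in 3, with 9 higher by 2-fold or more. Cd36, the fatty acid transporter that also scavenges lipoproteins, was 70.6-fold higher. Fabp4, an intracellular fatty acid carrier, read 7.70, 9.07 and 9.59 in osteoblasts and 11.67, 11.61 and 11.47 in endothelial cells (2.80 ± 0.46 (SE, adjusted p = 0.00151)). Acadl and Acaa2, enzymes of mitochondrial beta-oxidation, and Pnpla2, the lipase that opens lipid droplets, were higher by 1.97 ± 0.48 (SE, adjusted p = 0.0126), 1.25 ± 0.28 (SE, adjusted p = 0.00871) and 1.25 ± 0.22 (SE, adjusted p = 0.00251). Lpl, lipoprotein lipase, read 9.02, 9.84 and 10.35 in osteoblasts and 9.34, 8.61 and 7.95 in endothelial cells and was not called (-1.10 ± 0.41 (SE, adjusted p = 0.0639)). Its capillary carrier Gpihbp1, above, was called.

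Glycolysis genes were higher in 4 and lower in 4 of 24, and the lower count was 2 without tumor-free endothelial replicate 2. Hk2, the hexokinase that commits glucose to glycolysis, read 7.01, 5.68 and 6.02 in osteoblasts and 4.70, 4.72 and 4.66 in endothelial cells (-1.54 ± 0.39 (SE, adjusted p = 0.014)). Pdk1, a kinase that inhibits pyruvate dehydrogenase, and the lactate transporter Slc16a1 were higher by 1.43 ± 0.27 (SE, adjusted p = 0.00333) and 1.36 ± 0.30 (SE, adjusted p = 0.00832). Citrate cycle genes gave 5 higher and 3 lower of 29, among them Ogdh and Dld (subunits of the oxoglutarate dehydrogenase complex), higher by 1.33 ± 0.24 (SE, adjusted p = 0.00266) and 1.16 ± 0.25 (SE, adjusted p = 0.00677). Respiratory chain genes (2 higher and 4 lower of 75) and ribosomal protein genes (1 and 1 of 55) were seldom called, against 31% of all genes. The lower count of the respiratory chain was 1 without tumor-free endothelial replicate 1.

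Genes of lipid synthesis were mostly not called. Scd1, which makes monounsaturated fatty acids, read 9.80, 8.11 and 8.23 in osteoblasts and 7.08, 6.47 and 6.37 in endothelial cells (-2.07 ± 0.45 (SE, adjusted p = 0.00739)). Cholesterol and fatty acid synthesis genes as a whole gave 1 higher and 3 lower of 31 in tumor-free mice and 2 and 15 in tumor-bearing mice. Elovl5, which lengthens polyunsaturated fatty acids, was higher in endothelial cells by 1.67 ± 0.25 (SE, adjusted p = 0.000973).

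Nucleotide genes included 3 salvage or breakdown enzymes with large endothelial excess. The purine phosphorylase Pnp read 7.87, 5.92 and 6.23 in osteoblasts and 10.0, 9.87 and 9.67 in endothelial cells (3.17 ± 0.44 (SE, adjusted p = 0.000584)), and the uridine phosphorylase Upp1 read 5.48, 5.17 and 4.92 against 8.09, 8.55 and 8.26 (3.11 ± 0.30 (SE, adjusted p = 4.42e-05)). Entpd1 (CD39), which strips phosphate from extracellular ATP, was higher by 3.52 ± 0.86 (SE, adjusted p = 0.0124). No gene of the 36 pentose phosphate and nucleotide genes was lower (1 after quantile normalization, 2 with the hematopoietic covariate), and 6 were higher. Among genes of amino acid handling, Glud1 (glutamate dehydrogenase) was higher by 1.64 ± 0.25 (SE, adjusted p = 0.000882) and the taurine transporter Slc6a6 by 1.63 ± 0.31 (SE, adjusted p = 0.00395).

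Collagen processing and mineralization genes were lower in endothelial cells. Collagen processing gave 15 lower and 2 higher of 31, and the lower count was 10 without tumor-free endothelial replicate 2. Lox, which cross-links collagen, read 8.17, 8.94 and 8.45 in osteoblasts and 5.61, 4.59 and 4.49 in endothelial cells (-3.62 ± 0.35 (SE, adjusted p = 4.37e-05)). Plod2, the lysyl hydroxylase of collagen telopeptides, read 10.51, 9.63 and 9.22 against 7.04, 6.58 and 6.31 (-3.14 ± 0.33 (SE, adjusted p = 7.5e-05)). Its relative Plod1, which acts on the helix, was on the other side at 1.69 ± 0.27 (SE, adjusted p = 0.00128). Mineralization gave 9 lower and 1 higher of 17, all of the lower ones by 2-fold or more. Alpl, tissue-nonspecific alkaline phosphatase, and Dmp1, an osteocyte phosphoprotein, were lower at -3.30 ± 0.24 (SE, adjusted p = 5.53e-06) and -3.68 ± 0.48 (SE, adjusted p = 0.000384). The one higher gene, the phosphate transporter Slc20a1, differed by 1.27 ± 0.32 (SE, adjusted p = 0.0146) and lost its call without tumor-free endothelial replicate 1.

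Vascular tone and eicosanoid genes were higher in 10 and lower in 9 of 30, and the lower count was 3 with the hematopoietic covariate. Pde2a, a cyclic nucleotide phosphodiesterase, Ece1, which activates endothelin, and Nostrin, which moves nitric oxide synthase inside the cell, were higher by 3.01 ± 0.29 (SE, adjusted p = 4.42e-05), 2.87 ± 0.49 (SE, adjusted p = 0.00187) and 2.04 ± 0.28 (SE, adjusted p = 0.00051). Nos3, the endothelial nitric oxide synthase itself, read 5.71, 5.27 and 5.83 in osteoblasts and 6.01, 6.0 and 5.98 in endothelial cells and was not called (0.39 ± 0.21 (SE, adjusted p = 0.164)). Hpgd, which inactivates prostaglandins, read 9.46, 9.67 and 9.66 in osteoblasts and 7.34, 7.24 and 7.59 in endothelial cells (-2.21 ± 0.26 (SE, adjusted p = 0.000161)), and Ptgs2 (cyclooxygenase-2) read 7.0, 8.15 and 6.94 against 4.90, 5.90 and 5.56 (-1.91 ± 0.44 (SE, adjusted p = 0.01)). Both the enzyme that starts prostaglandin synthesis and the one that ends prostaglandin action were higher in osteoblasts. Pla2g4a, which frees arachidonic acid for that pathway, was lower in endothelial cells at -2.20 ± 0.46 (SE, adjusted p = 0.00586).

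Retinoid and redox genes held single large differences. Rbp7, an intracellular retinol carrier, read 5.57, 5.73 and 6.04 in osteoblasts and 10.45, 10.32 and 10.12 in endothelial cells, a 22.9-fold difference (4.52 ± 0.44 (SE, adjusted p = 4.42e-05)). Txnip, an inhibitor of thioredoxin, read 8.50, 8.69 and 8.60 against 11.23, 11.19 and 11.18 (2.60 ± 0.17 (SE, adjusted p = 2.4e-06)), and the peroxidase Gpx8 of the endoplasmic reticulum read 10.08, 9.95 and 10.02 against 7.36, 6.62 and 6.91 (-3.05 ± 0.19 (SE, adjusted p = 2.04e-06)). For these 3 genes the gap between the groups was several times the range within either group. Gpx3, a secreted peroxidase, was lower at -2.33 ± 0.56 (SE, adjusted p = 0.0118). Over their lists, retinoid and aldehyde genes gave 3 higher and 7 lower of 22, and antioxidant genes 3 and 5 of 37. The retinoid lower count was 3 without tumor-free endothelial replicate 2.

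Junction and adhesion genes were higher in 20 and lower in 7 of 42, and small GTPase regulators of vessels in 22 and 3 of 42. With the hematopoietic covariate the lower counts were 4 and 1. Besides Rasgrp3, the Rap exchange factor Rapgef5 was higher by 4.39 ± 0.20 (SE, adjusted p = 2.44e-07). F11r (JAM-A), a tight junction protein, and Sele, the leukocyte-capturing E-selectin, were higher by 4.73 ± 0.28 (SE, adjusted p = 1.23e-06) and 4.24 ± 0.21 (SE, adjusted p = 3.31e-07). Cdh11 (OB-cadherin) read 9.05, 10.19 and 10.74 in osteoblasts and 7.04, 6.35 and 5.68 in endothelial cells (-3.63 ± 0.49 (SE, adjusted p = 0.00043)), and Cdh2 (N-cadherin) was lower at -3.03 ± 0.56 (SE, adjusted p = 0.00305). Caveola and transcytosis genes were higher in 10 of 18 and lower in none (1 after quantile normalization or with the hematopoietic covariate). The higher count was 7 without tumor-free endothelial replicate 1. Cav1, the coat protein of caveolae, read 6.14, 4.90 and 4.96 against 10.35, 9.59 and 9.96 (4.64 ± 0.31 (SE, adjusted p = 2.81e-06)). The coat partner Cavin2 and the diaphragm protein Plvap were higher by 4.61 ± 0.24 (SE, adjusted p = 5.26e-07) and 3.31 ± 0.22 (SE, adjusted p = 2.81e-06). Among feedback regulators of receptor kinases, the ERK phosphatase Dusp6 was higher by 3.30 ± 0.35 (SE, adjusted p = 8.21e-05) and the receptor phosphatase Ptprd was lower at -3.23 ± 0.45 (SE, adjusted p = 0.000584).

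Some gene families were one-sided. All 6 GIMAP GTPases tested, best known from lymphocyte survival, were higher in endothelial cells (median 2.58, and 2.58 in tumor-bearing mice), led by Gimap4 at 59.1-fold. The number was 5 without tumor-free osteoblast replicate 1. The 8 GIMAP genes on the array, 2 of them untested, averaged 4.47, 4.68 and 4.53 on the tumor-free osteoblast arrays. Those averages lay under the medians of the same arrays (5.36 to 5.41). A gene that dim in osteoblasts passes the filter mainly through endothelial arrays, so the one-sided count was partly built in. Guanylate binding and interferon-induced GTPases were higher in 5 of 9 and lower in none, among them Iigp1 and Gbp9, effectors against intracellular microbes, at 2.96 ± 0.38 (SE, adjusted p = 0.000305) and 3.16 ± 0.65 (SE, adjusted p = 0.00563). Semaphorins were higher in 6 and lower in 5 of 15. Sema3g, a vessel semaphorin, was higher by 1.5 ± 0.16 (SE, adjusted p = 7.9e-05), and Sema3d was lower at -2.52 ± 0.54 (SE, adjusted p = 0.00706). The lower count was 2 without tumor-free endothelial replicate 2. Integrins were divided 7 to 7, with the laminin and collagen receptor subunits Itga6 and Itga1 higher by 2.72 ± 0.37 (SE, adjusted p = 0.000503) and 2.55 ± 0.44 (SE, adjusted p = 0.00216), and Itga10, a cartilage collagen receptor, and Itgb5 lower at -1.48 ± 0.23 (SE, adjusted p = 0.00124) and -1.41 ± 0.23 (SE, adjusted p = 0.00138). With the hematopoietic covariate 3 integrins were lower, and that count was 3 without tumor-free endothelial replicate 3. Itgav, the CD51 gene, is 1 of the 7 lower integrins, and its direction was set by the sort. Itgad, another of the 7, had probe sets of differing sign.

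The 205 solute carriers tested were called higher and lower equally often, 33 and 33, but 26 of the higher and 6 of the lower ones reached 2-fold, and the lower count was 7 without tumor-free endothelial replicate 2. Slc39a10, a zinc importer, was higher by 2.69 ± 0.28 (SE, adjusted p = 8.03e-05). The transporters Abcc9, a subunit of ATP-sensitive potassium channels, and Abcg2, a drug efflux pump, were higher by 3.32 ± 0.43 (SE, adjusted p = 0.000358) and 3.25 ± 0.42 (SE, adjusted p = 0.000318). Kcnj8, the pore that Abcc9 pairs with in vessels, was higher by 1.44 ± 0.27 (SE, adjusted p = 0.0032). Abcc9 and Kcnj8 are also on the list of smooth muscle and pericyte markers, of which 2 (these genes) were higher and 2 lower of 13 tested. That list averaged 6.24, 6.39 and 6.64 on the osteoblast and 7.21, 6.69 and 6.51 on the endothelial arrays, and the part of such cells in these differences was not tested. Matrix metalloproteinases were lower in 4 of 13 and higher in none (1 with the hematopoietic covariate). The 22 on the array, 9 of them untested, averaged 4.92, 4.89 and 4.95 on the tumor-free endothelial arrays, under the medians of those arrays. Members dim in endothelial cells pass the filter mainly through osteoblast arrays, so this one-sided count was partly built in. Mmp13, the collagenase of bone and cartilage remodeling, read 8.97, 11.50 and 11.64 in osteoblasts and 6.99, 6.11 and 6.21 in endothelial cells (-4.27 ± 0.67 (SE, adjusted p = 0.00121)).

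**Figure D5:**
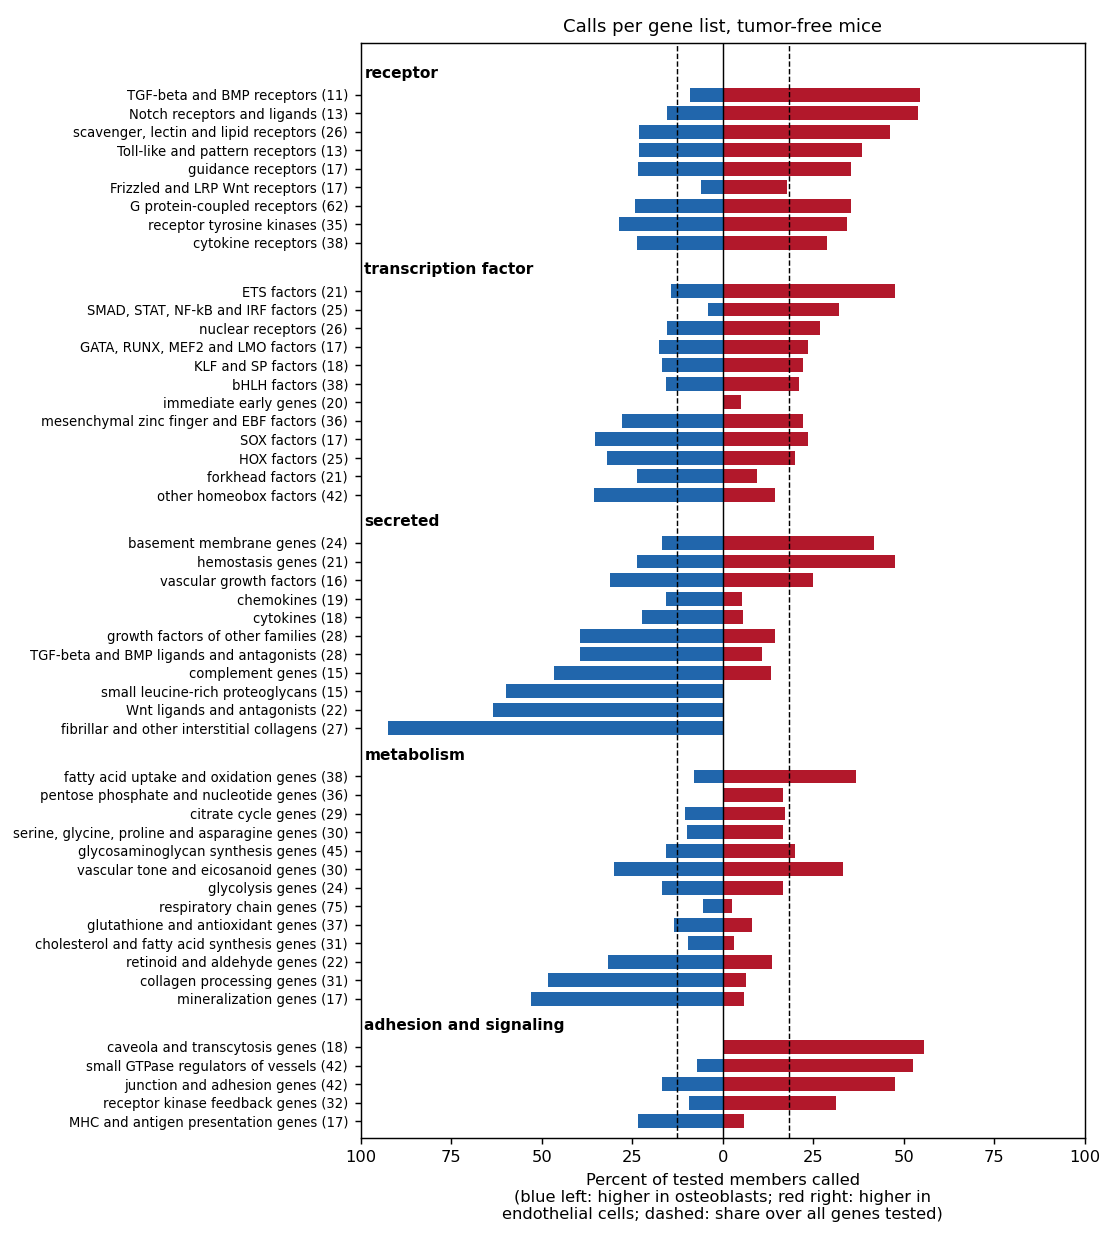
Percent of the tested members of each gene list that were called lower (blue, to the left) or higher (red, to the right) in endothelial cells of tumor-free mice, for lists with at least 10 tested members (number in parentheses). Dashed lines mark the 12.7% and 18.2% of all genes tested. Interstitial collagens reached furthest to the left, and caveola genes had no lower call.

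Tumor-bearing mice gave a second set of endothelial and osteoblast arrays. Both comparisons took their spread from 1 fit over the 12 arrays, so calls shared by the 2 mouse groups are not independent. There 1010 genes (8.13%) were higher and 844 (6.79%) lower in endothelial cells. In both mouse groups 817 genes were higher (6.57%) and 435 lower (3.5%), and 12 genes were called in opposite directions. Of the 2266 genes higher in tumor-free mice, 1987 had the same sign in tumor-bearing mice, as did 1366 of the 1584 lower genes. The same-sign share over all genes tested was not computed. Of the lower genes of at least 2-fold, 65.3% were called lower there too, against 12.7% of those under 2-fold. For higher genes the shares were 45.2% and 18.4%. Tek differed by 5.79 in tumor-free and 5.53 in tumor-bearing mice, Erg by 3.34 and 3.35, and Slc13a5 by -4.42 and -5.08. For these 3 genes the mouse groups gave close values, and for the next 4 the values lay further apart. Pth1r differed by -3.41 and -4.73, Hk2 by -1.54 and -4.08, Ptgs2 by -1.91 and -4.77, and Ets1 by 3.28 and 1.27. None of these 4 changes passed the test of the difference between mouse groups, for which 26 genes were called (0.209%). Collagen processing genes were lower in 15 of 31 in tumor-free and 24 in tumor-bearing mice, and interstitial collagens in 25 and 19 of 27.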

How the data were processed

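RNA was extracted with PicoPure, amplified as SPIA cDNA and labelled with biotin, per the labels' protocols. The authors deposited log2 expression values per probe set, made with affy per the submitters' processing notes. For that step the version, background correction and normalization were not given in the sources used here. Array medians ran from 5.21 to 5.41. Of 34760 probe sets, 21640 had 1 symbol in the annotation table, 1321 several and 11799 none, and the latter groups were left out. Of 66 array pairs, 0 were identical. Values were kept as deposited, with no pseudocount. limma 3.58.1 in R 4.3.3 fitted 4 group means over all 12 arrays (8 residual degrees of freedom), and differences are endothelial minus osteoblast, on the log2 scale, with Benjamini-Hochberg adjusted p-values over 12430 genes and a threshold of 0.05. On simulated data with 200 changed genes, 4 of 131 calls were false when all groups had equal spread. With each group's own measured spread 94 of 224 calls were false, well above the threshold. In that run 200 of 12200 genes were changed, against 3850 genes called in the data, so the false share does not carry over as a number. Of the simulated 2-fold changes, 42% were recovered with equal spread and 40% with each group's own. The spread did differ (0.33 in tumor-free osteoblasts, 0.17 in endothelial cells). The calls, and the counts of calls, are therefore less certain than the adjusted p-values state. Of 225 called genes with several probe sets, 52 had probe sets of differing sign. The number of arrays, 3 per group, limits the precision.

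Gene lists (70) and families (25) are described by counts and medians without a set test. They were chosen, like the comparison itself, with earlier results of these data known. Genes named are the 15 with the largest difference each way whose groups do not overlap, up to 4 members each way per list or family by smallest p, members against a list's main direction, sort markers and interaction genes. Other members given by their values were picked with those values known (Acaa2, Acadl, Bmp5, Calcrl, Col27a1, Col4a1, Col4a2, Col6a3, Cxcl12, Edn1, Entpd1, Insr, Lpl, Nos3, Pdgfra, Pnpla2, Prrx1, Ptgs2, Sox9 and Vwf). The 26 alternatives cover normalization, filters, probe set choice, array weights, the replicate block, left-out arrays and a covariate of 44 hematopoietic markers.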

Additional observations from a re-analysis of the deposited data

Results flagged for a closer look

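For 26 genes the endothelial minus osteoblast difference itself changed between tumor-free and tumor-bearing mice (interaction of cell type and tumor in limma, adjusted p from 0.0279 to 0.0413 over 12430 genes tested, 3 arrays per group). The value given for each is the tumor-bearing minus the tumor-free difference on the log2 scale. Every one of the 26 was lost in at least 8 of the alternatives tried.

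The difference moved downward with the tumor in 22 genes. Mtmr12, a phosphatase-like adaptor of muscle, read 5.47, 5.91 and 5.60 in tumor-free osteoblasts and 8.69, 8.56 and 8.78 in tumor-free endothelial cells, and 7.47, 7.44 and 7.88 and 8.39, 7.84 and 8.29 in tumor-bearing mice, a change of -2.44. Its tumor-free gap was wide, whereas the groups were near each other in tumor-bearing mice. Kera (keratocan, a small proteoglycan) changed by -2.73, Abhd2 (a lipid hydrolase) by -2.59, the magnesium transporter Slc41a1 by -2.37, and the lipopolysaccharide binding protein Lbp by -2.28. Sobp changed by -2.24, the adhesion receptor Adgra3 by -2.05, the activin receptor Acvr1b by -1.91 and the sterol enzyme Hsd17b7 by -1.91. Abhd2 and Slc41a1 were higher in endothelial cells of tumor-free mice and lower in those of tumor-bearing mice in mean value (1.42 and -1.16, 1.29 and -1.07). The ubiquitin ligase Ube3c changed by -1.86, the mitochondrial fusion gene Mfn1 by -1.85, Zbtb43 by -1.76, Smim3 by -1.74 and Nrep by -1.72. Prdm4 changed by -1.69, the mitochondrial transport gene Rhot1 by -1.66, Park7 by -1.65 and the phosphatase SHP2 gene, Ptpn11, by -1.42. Anxa2 changed by -1.41, the autophagy receptor Nbr1 by -1.31, the lysosomal glucosidase Gaa by -1.29 and Ttc17 by -1.22.

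The difference moved upward in 4 genes. The drug pump Abcb1b read 4.03, 4.0 and 5.05 and 4.36, 4.0 and 3.80 in tumor-free osteoblasts and endothelial cells, and 3.95, 4.14 and 3.81 and 6.0, 6.31 and 6.13 in tumor-bearing mice, a change of 2.48. Its groups were separated in the tumor-bearing mice. Ablim3 changed by 2.23, Stxbp6 by 2.11 and the acrosomal protease gene Acr by 1.29.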

How the results depend on the processing

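The count of 3850 genes called in tumor-free mice stayed within 1.5 times under the replicate block, both other scalings, a stricter filter, averaged probe sets, the intensity trend, array weights and the hematopoietic covariate. It was 6564 with no filter, 2529 with array weights per group, 364 when the test asked for more than 2-fold and 1911 from the 6 tumor-free arrays alone. It was 2090 with tumor-free replicates 2 and 3 left out of both cell types, which sets 1 array against 1, with the spread taken from the tumor-bearing groups. Leaving out 1 array gave 2266 to 3921. The tumor-bearing count of 1854 was 3733 with array weights, 391 for more than 2-fold and 1325 to 2376 with 1 array left out. The 26 genes that differed between mouse groups became 0 under the replicate block, 0 for more than 2-fold, 14 under quantile normalization, 96 under median centring, 11 under the stricter filter, 41 with averaged probe sets and 324 with array weights. That number was 378 once replicate 1 was dropped in both tumor-free groups, 96 once replicates 2 and 3 were dropped and 190 with the hematopoietic covariate, and it ranged from 0 to 545 with 1 array left out. The causes were not tested.

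The sample titles do not say whether same-numbered arrays came from the same mice, and the main fit did not use the number. Same-numbered tumor-free arrays had deviations correlated at 0.095, 0.074 and -0.003, against -0.100 to 0.052 for different numbers. Correlations this small, from 3 arrays per group, can neither show nor exclude a pairing. With the number as a replicate block 3329 genes were called, 2122 higher and 1207 lower.

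Of the 232 genes named, 110 lost their call with the sign kept when the test asked for more than 2-fold, 53 without replicates 2 and 3, 31 with the hematopoietic covariate, 25 in the fit of 6 arrays, 7 with array weights per group and at most 13 under each other alternative. Sign changes were as follows. With the covariate, C1qc became 0.28, Cxcl12 0.53, Hsd17b7 -0.11, Pdgfra 0.27, Vdr 0.10, Smim3 0.21 and Abcb1b 0.0235. C1qc is itself on the macrophage list that enters the covariate, so its change was built in. Once replicates 2 and 3 were dropped, Cxcl12 became 1.02, Lpl 0.31, Nrep -0.15, Pdgfra 0.35, Vdr 0.0880, Ablim3 0.45 and Abcb1b 0.34. Ablim3 became 0.17 after quantile normalization and 0.12 after centring, Adgra3 0.12 after centring and 0.0553 with array weights, and Smim3 0.14 and 0.0135. Once replicate 1 was dropped Adgra3 became 0.0056 and Vwf -0.11. With 1 array left out the difference ranged from -0.48 to 0.0407 for Abcb1b, -0.26 to 0.0909 for Ablim3, -0.18 to 0.0944 for Adgra3, -0.0754 to 0.0848 for Smim3 and -0.12 to 0.57 for Vwf. Dim probe sets limit what can be read, and 7507 genes were not tested.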

Other observations

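The array also holds probe sets annotated to microRNA genes. Of 300 such genes, 92 passed the filter on low values. In tumor-free mice the endothelial mean was below the osteoblast mean for 83 of the 92, with 37 called lower (40.2%), 2 called higher and a median difference of -0.43. The number of lower calls was 37 after quantile normalization and 23 after median centring. Most of these genes were dim, with 50 of the 92 in the 2 dimmest of 5 bins of genes by level, where the other 4922 genes had a median of -0.27 and 20% lower calls. In tumor-bearing mice the mean was below for 62, the median was -0.09, and 5 were called lower and 0 higher by limma. The cause of this one-sided count was not tested.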
